A study of Rattus norvegicus with 9 samples.

Results

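In rat hippocampus, the groups labelled Model and ChryM were set in 1 contrast against control rats (Ctrl), to describe the change that both groups have in common and that remained in the group given chrysophanol. The comparison used all 9 libraries of the study: 3 Ctrl, 3 Model and 3 ChryM. The change was the mean of the Model and ChryM differences from Ctrl, so both groups had equal weight. A gene was called shared when this mean change passed the test and all 6 Model and ChryM libraries lay above, or all 6 lay below, all 3 Ctrl libraries. Of 7073 genes with enough counts to be tested, 769 (10.9%) were shared in this sense, 398 (5.63%) of them higher and 371 (5.25%) lower in Model and ChryM than in Ctrl.

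Poly(A) RNA of the hippocampal region of male Sprague-Dawley rats, 6 to 8 weeks old on arrival, was sequenced with a strand-specific (dUTP) method. Ctrl rats were a normal control group. Model rats had a high-fat diet for 4 weeks, 1 dose of 50 mg/kg of streptozotocin, which destroys pancreatic beta cells, a blood glucose of at least 16.7 mmol/L as the criterion of diabetes, and then 5 weeks of chronic unpredictable mild stress. ChryM rats received chrysophanol, a plant anthraquinone, by oral gavage for 14 days. The labels do not spell out that ChryM rats were diabetic and stressed, which follows from the study's title, and they give no dose. Diet, streptozotocin and stress were applied together, so they cannot be told apart here. No group of healthy rats given the drug was among the samples, and whether Ctrl and Model rats were gavaged is not stated. The labels do not tie libraries to single animals, so a p-value here reflects only how far these libraries scatter, and that scatter may be technical.

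The hippocampus is a cortical structure needed for memory, and it is sensitive to glucose, insulin and stress hormones. Its tissue holds pyramidal and granule neurons, interneurons, astrocytes, microglia, vessels and the oligodendrocytes that wrap axons in myelin. It borders the lateral ventricle, where the choroid plexus, an epithelium that secretes cerebrospinal fluid, lies close to its surface. In bulk tissue, fewer cells of a type and less RNA per cell cannot be told apart.

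Library totals were low, between 631119 and 866048 counts, and a tested gene had a median of 19 to 27 counts per library. Levels below are counts scaled to library size (CPM) and by trimmed-mean factors of 0.958 to 1.06, and they are compared between libraries only, not between genes. Changes are log2 fold changes with a standard error (SE) and the Benjamini-Hochberg adjusted p of edgeR's quasi-likelihood test, called at an adjusted p under 0.05. On which strand reads were counted is not given in the sources used here. Mt-nd6, the 1 mitochondrial mRNA encoded on the opposite strand to the other 12, had an FPKM 6.06 to 12.3 times their median in the 9 libraries. Counts under a gene's name may therefore include, or largely be, reads of the opposite strand, and RefSeq genes that overlap a named gene on the other strand are given with it. No strand was found for Enpp2, Cdkn1c, LOC100134871, LOC102546590, LOC100360413 and Potef, among others, so overlap could not be looked up for them. Opposite-strand genes that lie within 5 kb without overlap, such as those of Cibar2, Alg3, Pdrg1, Loxl3, Syt11, Dlg4, Cnp and Mfrp, are not named.

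Expression of the whole transcriptome placed the 6 Model and ChryM libraries together on the first principal component, which held 27.5% of the variance. Ctrl libraries had scores of -22.2 to -19.7 on it, and the other 6 had scores of 6.90 to 12.8. The second component, with 19.3% of the variance, had Model at -18.0 to -11.9, ChryM at 14.6 to 15.0 and Ctrl at -0.678 to 2.10. Taken as 1 contrast, Model and ChryM differed from Ctrl in 1284 genes (18.2%), of which 665 (9.40%) were higher and 619 (8.75%) lower. No overlap between the 6 and the 3 libraries, with or without a call, was met by 979 genes (13.8%), of which 491 (6.94%) were higher and 488 (6.90%) lower. A further 515 called genes overlapped, and 210 genes without overlap missed the call. Just inside the threshold lay Zfp335 (adjusted p = 0.0487), and the gene without overlap that came closest outside was Fam169a (0.0501).

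The split of called genes, 51.8% higher, differed between alternatives. It was 52.7% with DESeq2 size factors, 50.8% with limma-voom, 32.9% with library totals, 39.8% and 41.7% with limma on log2(FPKM + 1) and log2(FPKM + 0.1), and 69.4% with DESeq2. The FPKM fits changed tool and scaling together, and DESeq2 used its own filter over all 30562 genes. Among genes with no opposite-strand neighbour within 5 kb it was 34.9%. Without Ctrl 1 the number called higher was 440, and without Ctrl 2 the number called lower was 405. Shared higher genes numbered 243 with library totals and shared lower genes 144 with DESeq2. The counts of higher and lower genes are therefore given apart, and their balance is not read.

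Among the shared genes, which had to pass the call, those that were lower had larger changes than those that were higher. The 10th percentile of the absolute log2 fold change was 0.40 in the lower and 0.29 in the higher genes. The part of the call itself in this difference was not tested. The median log2 fold change was -0.70 in the lower and 0.47 in the higher genes, beside -0.02 over all genes tested. At least 2-fold changes numbered 78 lower and 24 higher, and at least 4-fold changes 11 lower and 3 higher. The lower genes had a median of -0.67 in Model and -0.72 in ChryM, and the higher genes 0.44 and 0.49. These 2 sets of values share the Ctrl libraries. Alone, Model differed from Ctrl in 879 genes (12.4%), 7.04% of those tested higher and 5.39% lower, and ChryM in 1329 (18.8%), 9.83% higher and 8.96% lower. Of the 398 higher genes, 258 were also called in each group alone, 34 in Model alone only, 91 in ChryM alone only and 15 in neither. For the 371 lower genes these numbers were 195, 39, 113 and 24. Among the genes given below with an SE, Model alone did not call Igfbp5, Gpr17, Kif5c, Hsp90ab1, Ldha, Sv2b, Pfkm, Pfkl, Gpx4, Klf9, Nr3c1, Vcam1, Rps19, Potef and Gpatch4, and ChryM alone did not call Nfkbie, Pcp4, Cck, Cspg4, Fezf2 and Pfkl.

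Whether chrysophanol-treated rats differed from Model rats in a shared gene was read from the ChryM to Model contrast of the same fit. Its estimate compares ChryM with Model, while the Ctrl libraries enter the estimated spread and the count filter. ChryM and Model differed in 585 of all genes tested (8.27%, with ChryM higher in 3.86% and lower in 4.41%) and in 10.9% of the shared genes. In 31 shared genes ChryM lay closer to Ctrl than Model did, 22 of them higher and 9 lower genes. In 53 it lay further from Ctrl, 36 higher and 17 lower. The other 685 had no called difference, and a missed call does not show that ChryM and Model were alike. In 404 of these 685 the 95% interval of the difference lay within 1.5-fold either way. Over all 7073 genes tested, with or without a called difference, this held for 2200 (31.1%). The 2 sets are not alike, since the 685 were already picked for having no called difference. Of the 404, 283 were higher and 121 lower genes. The numbers closer and further moved with single libraries: 59 were closer without Ctrl 3, and 29, 32 and 30 further without Model 2, ChryM 2 and ChryM 3. A gene that was back among the Ctrl libraries in ChryM cannot be shared, because all 6 libraries must lie on one side of Ctrl. The numbers closer and further, and the 10.9%, therefore do not tell how often ChryM lay nearer to Ctrl over all genes.

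**Figure D1:**
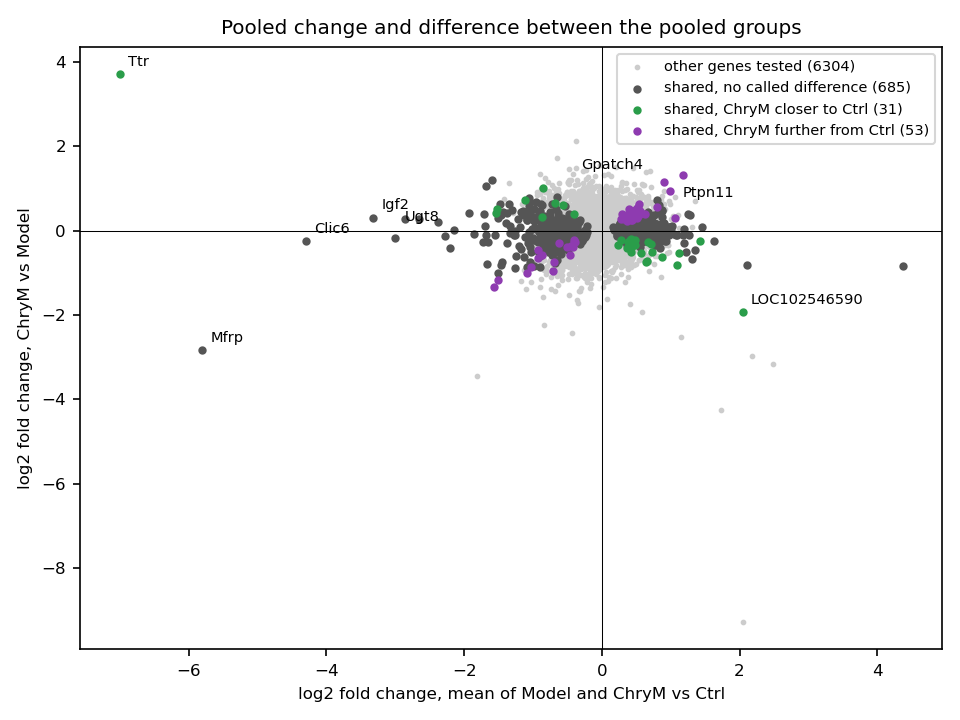
Each point is 1 of the 7073 tested genes, with the log2 fold change of Model and ChryM together against Ctrl on the x axis and that of ChryM against Model on the y axis; Mfrp, with 0 counts in ChryM, is drawn at a fitted value that depends on the prior count. Most shared genes (dark grey, 685) lie near 0 on the y axis, and Ttr and LOC102546590 are the labelled genes with a large change on both axes among those where ChryM was closer to Ctrl (green, 31), beside 53 where it was further (purple).

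Among the lower genes with the largest changes were genes known for the choroid plexus and the meninges. Ttr (ENSRNOG00000016275), which encodes the thyroid hormone carrier transthyretin, had 1268, 1233 and 1086 counts in Ctrl, 2, 2 and 2 in Model and 37, 33 and 31 in ChryM. Model libraries were near 0, and ChryM libraries lay between Model and Ctrl but far below Ctrl. The shared log2 fold change was -7.00 ± 0.30 (SE, adjusted p = 2.83e-129), with -8.86 in Model and -5.15 in ChryM. Over the 6 libraries together, Ctrl exceeded them 61.1-fold, with a counting interval of 50.4 to 74.8. ChryM was higher than Model by 3.70 (95% interval 2.51 to 4.90, adjusted p = 2.2e-15), so Ttr was shared and was also closer to Ctrl in ChryM.

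Enpp2 (ENSRNOG00000004089), which encodes autotaxin, an enzyme that makes lysophosphatidic acid, stood at 176, 169 and 189 CPM in Ctrl 1 to 3, 31.6, 23.2 and 38.7 in Model 1 to 3 and 39.1, 31.6 and 40.2 in ChryM 1 to 3. All 6 libraries lay far below the lowest Ctrl library, a change of -2.37 ± 0.14 (SE, adjusted p = 3.51e-40). The growth factor gene Igf2 (ENSRNOG00000020369) had 93.2, 102 and 131 CPM in Ctrl 1 to 3, 9.47, 8.27 and 10.7 in Model 1 to 3 and 9.77, 11.3 and 14.7 in ChryM 1 to 3, and its change was -3.32 ± 0.23 (SE, adjusted p = 2.2e-38). The binding protein gene Igfbp2 (ENSRNOG00000016957), whose product holds insulin-like growth factors in the fluid around cells, had 84.9, 74.7 and 91.7 CPM in Ctrl and 14.7 to 23.7 CPM (median 16.8) in the 6 Model and ChryM libraries, a change of -2.21 ± 0.19 (SE, adjusted p = 3.73e-23). In these 3 genes Model and ChryM overlapped, and none had a called difference between them: the ChryM to Model difference was 0.21 (95% interval -0.25 to 0.68, adjusted p = 0.696) for Enpp2, 0.30 (95% interval -0.54 to 1.14, adjusted p = 0.774) for Igf2 and -0.41 (95% interval -1.05 to 0.23, adjusted p = 0.537) for Igfbp2.

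Cdkn1c (ENSRNOG00000059500), an imprinted inhibitor of the cell cycle, had 32, 27 and 22 counts in Ctrl, 3, 2 and 3 in Model and 4, 4 and 4 in ChryM, a change of -2.86 ± 0.37 (SE, adjusted p = 3.39e-14). The Mfrp gene (ENSRNOG00000039107), which encodes a membrane protein related to frizzled receptors, had 18, 22 and 19 counts in Ctrl, 2, 0 and 0 in Model and 0, 0 and 0 in ChryM. Its 59 counts in Ctrl against 2 in the 6 other libraries gave a 53.8-fold excess, between 14.2 and 454 by counting error at 95% (adjusted p = 5.29e-15), and a fitted fold change is not printed because ChryM had no count. Clic6, a chloride channel protein of secretory epithelia, had summed counts of 51 in Ctrl, 2 in Model and 2 in ChryM, and Slc2a12, a glucose transporter gene, rose.

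The list of choroid plexus epithelium markers, of which 25 were in the table and 8 could be tested, had 5 shared lower members (Ttr, Enpp2, Igfbp2, Clic6 and Mfrp) and 1 higher (Slc2a12). Its median log2 fold change was -2.29, and 75% of those tested were shared, beside 10.9% of all genes tested. Summed over the 25 in CPM of library totals, as for every sum of a list given here, its level was 2048 to 2119 CPM in Ctrl, 217 to 271 in Model and 290.5 to 315 in ChryM. In 23 of the 25 the mean CPM was lower in Model and ChryM than in Ctrl, and 8 had counts in Ctrl and 0 in all 6 other libraries. Among the latter were Kl, Aqp1, Tmem72, F5 and Otx2, with summed Ctrl counts of 7, 8, 13, 13 and 3. The part of the amount of choroid plexus in the samples in the changes of Ttr, Enpp2, Igfbp2, Clic6 and Mfrp was not tested.

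Markers of meninges and vascular fibroblasts were also lower. Summed over 24 genes they stood at 448 to 451 CPM in Ctrl, 129 to 158 in Model and 167 to 240.2 in ChryM, and 21 of the 24 had a lower mean in Model and ChryM. Col1a1, which encodes a fibrillar collagen chain, had 43 counts in Ctrl, 10 in Model and 5 in ChryM. Col3a1, another, had 30, 3 and 1, and the sulfate transporter gene Slc13a4 had 34, 1 and 5. Of 3 tested members, Igf2 and Cdkn1c were shared lower genes, or 66.7% beside 10.9% of all genes tested. The part of meninges in the samples in these changes was not tested.

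Globin RNA, which marks red blood cells in the tissue, was also lower. Hba-a1 (ENSRNOG00000029886), an alpha globin gene, had 237, 238 and 239.5 CPM in Ctrl 1 to 3, 52.1, 61.2 and 49.3 in Model 1 to 3 and 73.3, 76.8 and 65.7 in ChryM 1 to 3. Ctrl libraries lay close to each other and far above the highest of the others, a change of -1.93 ± 0.11 (SE, adjusted p = 7.79e-40). Hbb had 73.1, 96.9 and 98.6 CPM in Ctrl and 15.8 to 34.8 CPM (median 27.6) in the 6 Model and ChryM libraries and a change of -1.71 ± 0.17 (SE, adjusted p = 1.32e-17). LOC100134871, annotated as a minor beta globin, had 182, 167 and 174 CPM in Ctrl and 52.9 to 71 CPM (median 60.3) in the 6 Model and ChryM libraries and a change of -1.51 ± 0.12 (SE, adjusted p = 2.71e-25). Globin genes are near-identical copies, and counts may be split among them. How much blood was left in each sample was not tested.

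Myelin genes made up the largest group of shared lower genes among the cell type lists. Of 31 tested members of the myelin and oligodendrocyte list, 16 were shared lower and 2 shared higher, with a median of -0.49. Shared genes made 58.1% of the tested members, beside 10.9% of all genes tested. Cldn11 (ENSRNOG00000010263), the tight junction protein of myelin sheaths, had 322, 281 and 356 CPM in Ctrl 1 to 3, 109, 95.9 and 81.3 in Model 1 to 3 and 94, 147 and 141 in ChryM 1 to 3, a change of -1.54 ± 0.10 (SE, adjusted p = 7.59e-35). Mal (ENSRNOG00000015445), a lipid raft protein of myelin, had 203, 211 and 192 CPM in Ctrl and 58.7 to 121 CPM (median 102) in the 6 Model and ChryM libraries and a change of -1.11 ± 0.10 (SE, adjusted p = 1.86e-18). The Mag gene, which encodes the myelin-associated glycoprotein at the axon surface, had 250.1, 255 and 256 CPM in Ctrl and 123 to 221 CPM (median 149) in the 6 Model and ChryM libraries and a change of -0.67 ± 0.09 (SE, adjusted p = 5.44e-10); it overlaps LOC108349549 and LOC120099789 on the other strand. In Cldn11 1 ChryM library lay among the Model libraries. In these 3 genes ChryM lay closer to Ctrl than Model did while staying below it: the ChryM to Model difference was 0.43 (95% interval 0.15 to 0.71, adjusted p = 0.0412), 0.71 (95% interval 0.42 to 1.01, adjusted p = 0.000171) and 0.65 (95% interval 0.41 to 0.88, adjusted p = 1.49e-05) in that order.

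Ugt8 (ENSRNOG00000009345), the enzyme that makes galactocerebroside, the characteristic lipid of myelin, had 54.3, 86.4 and 46.5 CPM in Ctrl 1 to 3, 22.1, 11.6 and 9.33 in Model 1 to 3 and 9.77, 15.8 and 17.4 in ChryM 1 to 3. The groups Model and ChryM overlapped, and both lay below the lowest Ctrl library, a change of -2.14 ± 0.22 (SE, adjusted p = 3.88e-17). Its ChryM to Model difference was 0.02 (95% interval -0.71 to 0.75, adjusted p = 0.99), an interval too wide to call the groups alike. Cnp (ENSRNOG00000017496), a phosphodiesterase of uncompacted myelin, had 323, 299 and 296 CPM in Ctrl and 122 to 199.7 CPM (median 151) in the 6 Model and ChryM libraries and a change of -0.98 ± 0.09 (SE, adjusted p = 6.83e-20), with a ChryM to Model difference of 0.27 (95% interval 0.03 to 0.51, adjusted p = 0.184). Further shared lower members are named here after their values were seen. Fa2h, the hydroxylase of myelin sphingolipids, changed by -1.59, the protease gene Adamts4 by -1.46 and Tspan2, a tetraspanin of oligodendrocytes that overlaps Tshb on the other strand, by -1.40. Gpr37, Gjc3, Car2, Pllp, Gsn, Ermn and Mog changed by -0.97, -0.73, -0.69, -0.67, -0.63, -0.49 and -0.36 in that order.

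The abundant myelin transcripts Mbp and Mobp, named after their values were seen, were not shared. Mbp, which encodes myelin basic protein and overlaps LOC108348833 on the other strand, had summed counts of 15550 in Ctrl, 8304 in Model and 16496 in ChryM, and Mobp 15530, 7818 and 18622. Their log2 fold changes were -0.62 in Model and 0.07 in ChryM for Mbp and -0.69 in Model and 0.25 in ChryM for Mobp. They dominated the summed level of the list, which was 17685 to 18969 CPM in Ctrl, 10422 to 11190.2 in Model and 17650.0 to 19198 in ChryM. The sum in ChryM thus reached that of Ctrl while 16 of its members stayed lower. Qdpr, which regenerates the cofactor tetrahydrobiopterin, was a shared higher member (0.97), with summed counts of 140, 233 and 267 in Ctrl, Model and ChryM, and Plekhb1 was the other (0.34).

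Of 8 tested markers of oligodendrocyte precursors, 3 were shared lower and 0 higher, or 37.5% beside 10.9% of all genes tested. The transcription factor gene Olig1 had 96.7, 104 and 103 CPM in Ctrl and 57.6 to 83.6 CPM (median 61.1) in the 6 Model and ChryM libraries and a change of -0.64 ± 0.13 (SE, adjusted p = 7.48e-05). Gpr17, a receptor of cells about to form myelin, had 33, 28 and 23.3 CPM in Ctrl and 3.66 to 18.9 CPM (median 12.2) in the 6 Model and ChryM libraries and a change of -1.26 ± 0.27 (SE, adjusted p = 0.000114); it overlaps Lims2 on the other strand. Cspg4, the NG2 proteoglycan, changed by -0.84 ± 0.26 (SE, adjusted p = 0.0142), and this call was lost without Ctrl 2, Ctrl 3 or Model 1 (largest adjusted p over its alternatives 0.0973).

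**Figure D2:**
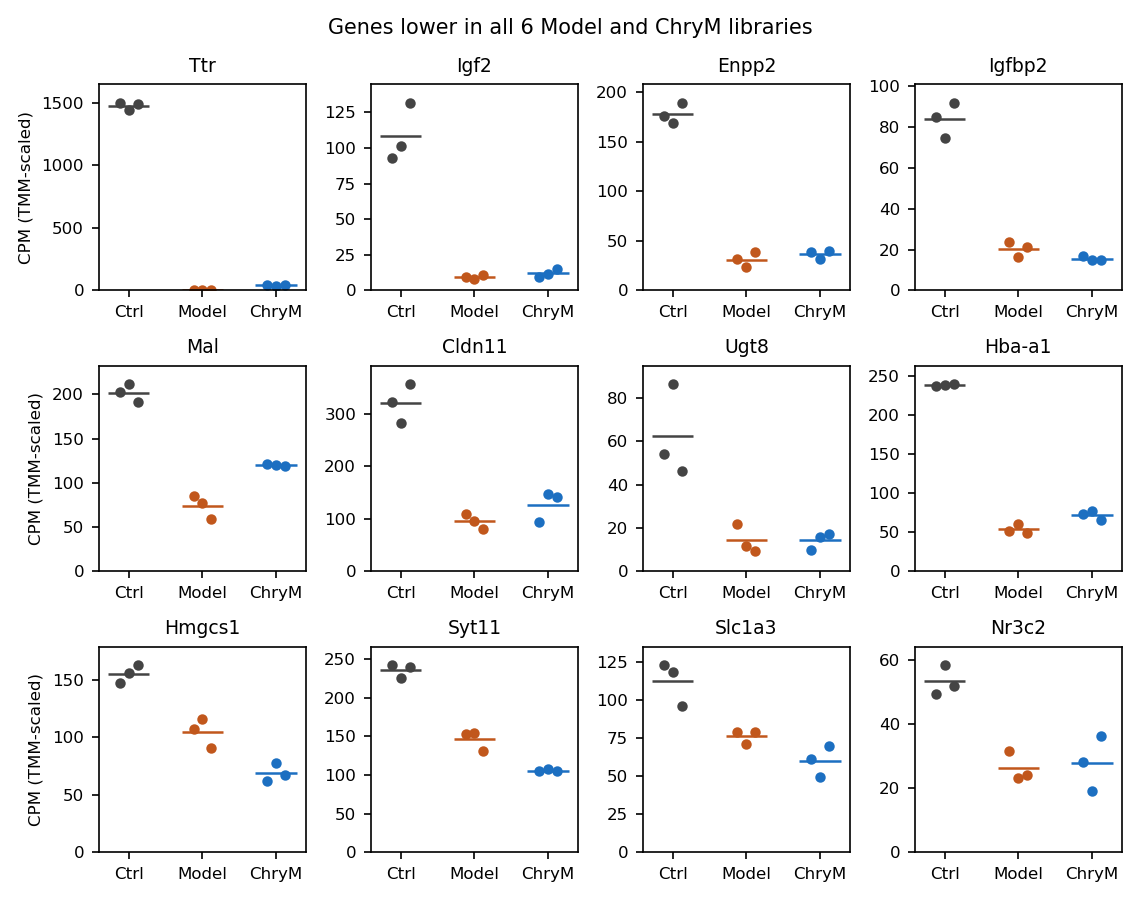
Scaled CPM (y axis, from 0) of 12 shared lower genes in each of the 9 libraries, grouped as Ctrl, Model and ChryM on the x axis; points are libraries and lines are group means of 3. All Model and ChryM points lie below all Ctrl points, with ChryM between Model and Ctrl in Mal and below Model in Hmgcs1 and Syt11.

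Cholesterol is made within the brain and goes largely into myelin. Of 18 tested genes of cholesterol synthesis and uptake, 4 were shared lower, among them Cyp51, Hmgcs1 and Scd2, and 1 higher (Apoe). The list had a median of -0.34, and 27.8% of its tested members were shared, beside 10.9% of all genes tested. RefSeq (GRCr8) gives the 250 bases before the start of Hmgcs1 and Cyp51, the 2 shared synthesis enzymes of the sterol pathway itself, and they are shown because sterol synthesis genes are known to be regulated together from this region. Hmgcs1 lies on the plus strand, with the window at chr2:53382054-53382303, and Cyp51 on the plus strand, at chr4:30991443-30991692. Capitals mark the motif CCAAT read on either strand.
Hmgcs1: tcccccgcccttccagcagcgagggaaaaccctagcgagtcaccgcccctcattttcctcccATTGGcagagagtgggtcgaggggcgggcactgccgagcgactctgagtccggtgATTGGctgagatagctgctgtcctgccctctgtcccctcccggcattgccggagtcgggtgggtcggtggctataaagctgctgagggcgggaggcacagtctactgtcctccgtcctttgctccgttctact
Cyp51: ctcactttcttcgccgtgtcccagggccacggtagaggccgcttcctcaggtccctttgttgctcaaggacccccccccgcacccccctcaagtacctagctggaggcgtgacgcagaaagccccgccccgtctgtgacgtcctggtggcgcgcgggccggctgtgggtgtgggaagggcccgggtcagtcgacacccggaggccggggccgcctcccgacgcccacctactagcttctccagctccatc

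The Hmgcs1 window held CCAAT 2 times and the Cyp51 window 0 times, beside 34.0% of 33469 RefSeq promoter windows of the same length with at least 1 on either strand. TATAAA, searched on both strands, was found 1 time before Hmgcs1 and in 12.9% of all windows. The sterol element TCACNCCAC, searched on both strands, was in neither window and in 0.974% of all windows, which says only that these letters are not there. The motifs do not overlap one another. The genomic build used for counting is not given, so the windows are those of RefSeq and not of the files.

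Hmgcs1 (ENSRNOG00000016552), which encodes the synthase that makes HMG-CoA in the cytosol, had 147, 156 and 163 CPM in Ctrl 1 to 3, 107, 116 and 90.7 in Model 1 to 3 and 62.3, 77.9 and 67 in ChryM 1 to 3. Every ChryM library lay below every Model library, and every Model library below every Ctrl library. Its change was -0.87 ± 0.11 (SE, adjusted p = 8.49e-11), and ChryM lay further from Ctrl, with a difference to Model of -0.58 (95% interval -0.89 to -0.28, adjusted p = 0.00595). Cyp51 (ENSRNOG00000007234), the demethylase of lanosterol, had 62.5, 60.7 and 57.5 CPM in Ctrl and 23.7 to 44.7 CPM (median 26.7) in the 6 Model and ChryM libraries and a change of -1.03 ± 0.18 (SE, adjusted p = 1.34e-06). Its ChryM to Model difference was -0.17 (95% interval -0.67 to 0.34, adjusted p = 0.798). Scd2, a desaturase of fatty acids, changed by -0.35 ± 0.07 (SE, adjusted p = 2.47e-05).

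Apoe (ENSRNOG00000018454), the lipoprotein that astrocytes use to carry cholesterol, moved the other way. It had 4023, 4066 and 4228 CPM in Ctrl 1 to 3, 5315, 5643 and 5610.4 in Model 1 to 3 and 5516, 5469 and 5377 in ChryM 1 to 3. The Model and ChryM libraries overlapped, and all of them lay above every Ctrl library. The change was 0.42 ± 0.06 (SE, adjusted p = 3.89e-09) and the ChryM to Model difference -0.02 (95% interval -0.15 to 0.12, adjusted p = 0.931), an interval within 1.5-fold.

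Astrocyte markers split. Of 23 tested, 4 were shared higher (Apoe, Cst3, Agt and Ntsr2) and 4 lower, among them Aqp4, Slc1a3 and Clu, and their summed level was 9857 to 10564 CPM in Ctrl, 10619 to 11203 in Model and 10538 to 10978 in ChryM. Aqp4 (ENSRNOG00000016043), the water channel of astrocyte endfeet, had 114, 119 and 119 CPM in Ctrl and 56.2 to 89.97 CPM (median 64.6) in the 6 Model and ChryM libraries and a change of -0.80 ± 0.13 (SE, adjusted p = 1.14e-07). Slc1a3 (ENSRNOG00000016163), a glutamate transporter, had 123, 118 and 95.8 CPM in Ctrl 1 to 3, 78.9, 71.1 and 78.7 in Model 1 to 3 and 61, 49.7 and 69.7 in ChryM 1 to 3. The ChryM libraries lay below the Model libraries, without a called difference, and the shared change was -0.74 ± 0.13 (SE, adjusted p = 1.39e-06). The chaperone gene Clu changed by -0.31 ± 0.08 (SE, adjusted p = 0.00118).

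Genes of the presynaptic terminal were lower where they were shared. Of 26 tested genes of synaptic vesicles and their fusion machinery, 5 were shared lower and 0 higher, with a median of -0.14. This was a share of 19.2%, beside 10.9% of all genes tested. Syt11 (ENSRNOG00000020279), a synaptotagmin that does not bind calcium, had 242, 225 and 239.5 CPM in Ctrl 1 to 3, 153, 154 and 131 in Model 1 to 3 and 105, 107 and 105 in ChryM 1 to 3. ChryM lay below Model and Model below Ctrl in every library, a shared change of -0.93 ± 0.09 (SE, adjusted p = 4.57e-16) and a ChryM to Model difference of -0.46 (95% interval -0.71 to -0.20, adjusted p = 0.0112). Cplx2 (ENSRNOG00000000105), a complexin that clamps vesicle fusion, had 198, 192 and 185 CPM in Ctrl and 97.1 to 124 CPM (median 108) in the 6 Model and ChryM libraries and a change of -0.82 ± 0.10 (SE, adjusted p = 8.45e-12); it overlaps LOC134482680 and Lnc012 on the other strand. Syt1, the calcium sensor of fast release, changed by -0.89 ± 0.17 (SE, adjusted p = 1.56e-05) and overlaps LOC102547595 and LOC120093799 on the other strand and Brcc3dc on its own. Sv2b, a vesicle glycoprotein, changed by -0.62 ± 0.15 (SE, adjusted p = 0.00113), and Rims1, a scaffold of the release site that overlaps LOC134480352 on the other strand, by -0.59.

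Of 21 tested postsynaptic genes of glutamate synapses, 4 were shared lower and 0 higher, or 19.0% beside 10.9% of all genes tested. The list's median was 0.02, and -0.07 with library totals. Dlg4 (ENSRNOG00000018526), which encodes the scaffold PSD-95, had 282, 266 and 297 CPM in Ctrl and 160.0 to 199.7 CPM (median 172) in the 6 Model and ChryM libraries and a change of -0.70 ± 0.09 (SE, adjusted p = 2.02e-11). Its ChryM to Model difference was 0.12 (95% interval -0.11 to 0.34, adjusted p = 0.637), an interval within 1.5-fold. Gria1 (ENSRNOG00000045816), an AMPA receptor subunit, had 81.4, 80.6 and 68.4 CPM in Ctrl 1 to 3, 52.1, 41.4 and 48 in Model 1 to 3 and 42.7, 55.3 and 24.1 in ChryM 1 to 3. All 6 lay below Ctrl, with ChryM 3 the lowest, a change of -0.80 ± 0.16 (SE, adjusted p = 2.43e-05). Gria2, the subunit that makes AMPA receptors impermeable to calcium, changed by -0.47 ± 0.10 (SE, adjusted p = 0.000104), and Camk2a, a kinase of synaptic plasticity, by -0.43 ± 0.10 (SE, adjusted p = 0.000481).

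Of 28 tested genes of neurofilaments, tubulins and axonal transport, 3 were shared lower (Nefl, Kif5c and Tuba1a) and 0 higher, a share near the 10.9% of all genes tested. Of 23 tested genes of tau, amyloid and neurodegeneration, 3 were shared lower (App, Clu and Aplp2) and 2 higher (Apoe and Sod1). Shared genes made 21.7% of this list, beside 10.9% of all genes tested. Nefl (ENSRNOG00000013658), the light neurofilament chain, had 810.3, 813 and 782 CPM in Ctrl 1 to 3, 628, 693 and 743 in Model 1 to 3 and 557, 488 and 528 in ChryM 1 to 3. ChryM lay below Model in every library, a change of -0.42 ± 0.07 (SE, adjusted p = 1.21e-07) and a ChryM to Model difference of -0.40 (95% interval -0.55 to -0.24, adjusted p = 0.000109). App (ENSRNOG00000006997), the amyloid precursor, had 1141, 1177 and 1109 CPM in Ctrl 1 to 3, 1021, 875 and 949 in Model 1 to 3 and 702, 777 and 741 in ChryM 1 to 3, a change of -0.45 ± 0.06 (SE, adjusted p = 1.8e-09) with ChryM further from Ctrl. The ChryM to Model difference was -0.36 (95% interval -0.51 to -0.21, adjusted p = 0.000241). App overlaps LOC134480962 on the other strand. Its relative Aplp2 changed by -0.49 ± 0.11 (SE, adjusted p = 0.000436). Kif5c, a kinesin of axonal transport, changed by -0.69 ± 0.15 (SE, adjusted p = 0.000134).

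Of 10 tested markers of neighbouring cortex and striatum, 2 were shared lower and 0 higher, or 20% beside 10.9% of all genes tested. Tbr1, a transcription factor of deep cortical neurons, had 24, 26 and 13 counts in Ctrl, 10, 5 and 7 in Model and 8, 10 and 7 in ChryM, a change of -1.27 ± 0.28 (SE, adjusted p = 0.000194). Fezf2, another, had 19, 16 and 11 counts in Ctrl, 5, 5 and 5 in Model and 9, 13 and 8 in ChryM and a change of -0.96 ± 0.32 (SE, adjusted p = 0.0216), a call lost without Ctrl 1 or Ctrl 2. The summed level of this list was 1573 to 1641 CPM in Ctrl, 1556 to 1792 in Model and 1032 to 1144 in ChryM. That of the markers of neighbouring thalamus and habenula, most of it from the single tested member Necab1, was 2118 to 2406 CPM in Ctrl, 3608 to 3722 in Model and 2110.2 to 2145 in ChryM. The part of dissection in the changes of neuronal genes was not tested.

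Of 16 tested genes of insulin and IGF signalling, 4 were shared lower and 0 higher, or 25% beside 10.9% of all genes tested. Among them were Igf2, Igfbp2 and Igfbp5, and Igf2 and Igfbp2 are also on the meningeal and choroid plexus lists. Igfbp5 (ENSRNOG00000017206), a binding protein made by neurons and other cells, had 53.1, 54.9 and 43.8 CPM in Ctrl 1 to 3, 29.99, 26.5 and 42.7 in Model 1 to 3 and 15.9, 20.3 and 18.8 in ChryM 1 to 3. ChryM lay below Model in every library, a change of -1.03 ± 0.19 (SE, adjusted p = 8.8e-06) with a ChryM to Model difference of -0.87 (95% interval -1.42 to -0.32, adjusted p = 0.0278).

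The receptors for corticosteroids, which bind the stress hormone corticosterone, were both shared lower genes. Nr3c2 (ENSRNOG00000034007), the mineralocorticoid receptor, had 49.5, 58.4 and 52 CPM in Ctrl 1 to 3, 31.6, 23.2 and 24 in Model 1 to 3 and 28.1, 19.2 and 36.2 in ChryM 1 to 3. Model and ChryM overlapped below all Ctrl libraries, a change of -0.99 ± 0.19 (SE, adjusted p = 1.09e-05) and a ChryM to Model difference of 0.06 (95% interval -0.46 to 0.59, adjusted p = 0.938). Nr3c1 (ENSRNOG00000014096), the glucocorticoid receptor, had 30.7, 31.5 and 31.5 CPM in Ctrl and 14.7 to 21.4 CPM (median 20.6) in the 6 Model and ChryM libraries and a change of -0.66 ± 0.23 (SE, adjusted p = 0.0307). Klf9, a transcription factor induced by both, changed by -0.73 ± 0.24 (SE, adjusted p = 0.0178). Klf9 overlaps LOC134485213 on the other strand. The calls of Nr3c1 and Klf9 were lost without Ctrl 2, that of Klf9 also without ChryM 3, and that of Nr3c1 also without Ctrl 1, Ctrl 3 or ChryM 2 (largest adjusted p over their alternatives 0.163 for Nr3c1 and 0.133 for Klf9). Of the 11 tested members of the glucocorticoid list, these 3 were shared lower and 0 higher, with a median of 0.09. Their share was 27.3%, beside 10.9% of all genes tested.

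Chaperone genes moved in both directions. Of 35 tested, 7 were shared lower and 2 higher, or 25.7% beside 10.9% of all genes tested, with a median of -0.24. Canx (ENSRNOG00000003343), the membrane chaperone calnexin of the endoplasmic reticulum, had 250.1, 251 and 263 CPM in Ctrl and 112 to 161 CPM (median 132) in the 6 Model and ChryM libraries and a change of -0.93 ± 0.09 (SE, adjusted p = 5.86e-17); it overlaps LOC120095092 on the other strand. Hspd1, the mitochondrial chaperonin, changed by -0.80 ± 0.16 (SE, adjusted p = 4.32e-05) and overlaps its partner Hspe1 on the other strand. Hsp90ab1, the constitutive cytosolic HSP90, changed by -0.27 ± 0.06 (SE, adjusted p = 0.000322).

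The heat-inducible Hspa1a (ENSRNOG00000045654), which encodes HSP70, rose. It had 43.6, 45.5 and 34.2 CPM in Ctrl 1 to 3, 134, 101 and 93.3 in Model 1 to 3 and 83, 66.6 and 77.7 in ChryM 1 to 3. ChryM libraries lay between Ctrl and Model, a shared change of 1.13 ± 0.16 (SE, adjusted p = 1.53e-09) with a ChryM to Model difference of -0.53 (95% interval -0.83 to -0.22, adjusted p = 0.0146). The gene overlaps Hspa1l on the other strand. Hsf1 (ENSRNOG00000021732), the transcription factor of the heat shock response, had 6, 7 and 5 counts in Ctrl, 13, 21 and 11 in Model and 13, 16 and 11 in ChryM, low counts with a change of 1.36 ± 0.37 (SE, adjusted p = 0.00161).

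Of 50 tested splicing factors and hnRNP proteins, 4 were shared lower and 2 higher, a share near the 10.9% of all genes tested. Ddx5 (ENSRNOG00000030680), an RNA helicase that overlaps Cep95 on the other strand, had 254, 238 and 238 CPM in Ctrl and 154 to 187 CPM (median 171) in the 6 Model and ChryM libraries and a change of -0.50 ± 0.09 (SE, adjusted p = 2.44e-06). Hnrnpr, an RNA-binding protein, had 68.4, 51.4 and 47.9 CPM in Ctrl and 22 to 44.7 CPM (median 28.3) in the 6 Model and ChryM libraries and a change of -0.87 ± 0.18 (SE, adjusted p = 9.75e-05). Hnrnpa1, which overlaps Cbx5, changed by -0.55 ± 0.12 (SE, adjusted p = 8.71e-05) and Hnrnpa3 by -0.42 ± 0.09 (SE, adjusted p = 0.000168). The deacetylase gene Sirt2, abundant in oligodendrocytes, changed by -0.57 ± 0.10 (SE, adjusted p = 2.86e-06) with 199, 169 and 189 CPM in Ctrl and 103 to 163 CPM (median 122) in the 6 Model and ChryM libraries.

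Of 20 tested genes of glycolysis and glucose transport, 3 were shared lower and 1 higher, or 20% beside 10.9% of all genes tested. The 2 subunits of lactate dehydrogenase, which interconverts pyruvate and lactate, moved apart. Ldha (ENSRNOG00000013009) had 172, 187 and 164 CPM in Ctrl 1 to 3, 152, 134 and 155 in Model 1 to 3 and 109.9, 129.9 and 102 in ChryM 1 to 3, a change of -0.43 ± 0.10 (SE, adjusted p = 0.000587). Ldhb (ENSRNOG00000013000) had 282, 249 and 260.1 CPM in Ctrl 1 to 3, 336, 339 and 372 in Model 1 to 3 and 331, 298 and 331 in ChryM 1 to 3, a change of 0.34 ± 0.08 (SE, adjusted p = 0.000665). In both genes all 6 libraries lay on one side of Ctrl, below it for Ldha and above it for Ldhb. Pfkm, a phosphofructokinase that overlaps Senp1 on the other strand, changed by -0.35 ± 0.10 (SE, adjusted p = 0.00869), a call lost with DESeq2 (adjusted p = 0.111), with 1 surrogate variable (0.0509) and in Model alone (0.294). Model alone did not call Ldha either (adjusted p = 0.176). Its relative Pfkl changed by -0.37 ± 0.13 (SE, adjusted p = 0.0327), a call lost without any of Ctrl 1, Ctrl 2, Ctrl 3, Model 1, Model 2 or ChryM 2. Tfrc, the transferrin receptor that brings iron into cells, had 20, 24 and 11 counts in Ctrl, 8, 6 and 3 in Model and 10, 10 and 9 in ChryM and a change of -1.15 ± 0.30 (SE, adjusted p = 0.00207), lost without Ctrl 2.

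Or2b4 (ENSRNOG00000065474), annotated as an olfactory receptor, had 217, 214 and 244 CPM in Ctrl 1 to 3, 688, 589 and 688 in Model 1 to 3 and 546, 517 and 600.4 in ChryM 1 to 3. Each of the 6 libraries was more than 2 times the highest Ctrl library, and the ChryM libraries lay lower than most Model libraries. The change was 1.43 ± 0.08 (SE, adjusted p = 3.1e-39), and the ChryM to Model difference -0.25 (95% interval -0.40 to -0.09, adjusted p = 0.0343). Alg3 (ENSRNOG00000001712), a mannosyltransferase of N-glycan synthesis, had 429, 449.6 and 549 CPM in Ctrl 1 to 3, 769, 847 and 869 in Model 1 to 3 and 961, 937 and 941 in ChryM 1 to 3, a change of 0.90 ± 0.07 (SE, adjusted p = 7.5e-25). The ubiquitin ligase gene Ube3a (ENSRNOG00000015734) had 249, 288 and 378 CPM in Ctrl 1 to 3, 578, 553 and 583 in Model 1 to 3 and 617, 709 and 777 in ChryM 1 to 3, a change of 1.06 ± 0.08 (SE, adjusted p = 7.18e-23) with ChryM further from Ctrl. Its ChryM to Model difference was 0.29 (95% interval 0.13 to 0.46, adjusted p = 0.0131). Ube3a overlaps LOC120097268 on the other strand and LOC134483384 on its own.

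Slirp (ENSRNOG00000012314), which encodes a protein that stabilises mitochondrial mRNAs, had 456, 462 and 532 CPM in Ctrl and 688 to 849.7 CPM (median 731) in the 6 Model and ChryM libraries. The change was 0.64 ± 0.07 (SE, adjusted p = 3.8e-14), and its ChryM to Model difference, 0.07 (95% interval -0.08 to 0.22, adjusted p = 0.71), had one of the 6 intervals closest to no difference among shared genes changed at least 1.5-fold. It overlaps Alkbh1 and Snw1 on the other strand. Pdrg1, a subunit of a prefoldin-like complex, had 301, 262 and 318 CPM in Ctrl and 397 to 515 CPM (median 480.3) in the 6 Model and ChryM libraries and a change of 0.68 ± 0.08 (SE, adjusted p = 3.82e-13). LOC100360413, an elongation factor 1 alpha-like gene, changed by 0.55 ± 0.06 (SE, adjusted p = 3.39e-14), and copies of this factor are near-identical. Cibar2 had 1182, 1202 and 1307 CPM in Ctrl 1 to 3, 2221, 2212 and 2111 in Model 1 to 3 and 1509, 1438 and 1616 in ChryM 1 to 3, a change of 0.57 ± 0.06 (SE, adjusted p = 3.24e-14). ChryM lay between Ctrl and Model in Cibar2, with a ChryM to Model difference of -0.52 (95% interval -0.66 to -0.38, adjusted p = 4.2e-10).

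The 6 genes with the narrowest ChryM to Model differences were chosen for that among the shared genes, so their likeness in both groups is a description. Enc1 (ENSRNOG00000016541), an actin-binding protein of neurons, had 164, 182 and 162 CPM in Ctrl 1 to 3, 115, 106 and 111 in Model 1 to 3 and 101, 123 and 113 in ChryM 1 to 3. Model and ChryM interleaved below Ctrl, a change of -0.60 ± 0.10 (SE, adjusted p = 1.39e-06) with a ChryM to Model difference of 0.02 (95% interval -0.24 to 0.29, adjusted p = 0.953). Loxl3, a lysyl oxidase, had 209, 213 and 212 CPM in Ctrl and 275 to 341 CPM (median 328) in the 6 Model and ChryM libraries and a change of 0.60 ± 0.09 (SE, adjusted p = 2.75e-09), with a ChryM to Model difference of 0.13 (95% interval -0.05 to 0.31, adjusted p = 0.482). Slc2a12, the glucose transporter on the choroid plexus list, had 93.2, 84.1 and 116 CPM in Ctrl and 126 to 165 CPM (median 147) in the 6 Model and ChryM libraries and a change of 0.61 ± 0.12 (SE, adjusted p = 9.98e-06), with a ChryM to Model difference of -0.04 (95% interval -0.28 to 0.21, adjusted p = 0.92). Bricd5, which overlaps Mlst8 on the other strand, changed by 0.63 ± 0.10 (SE, adjusted p = 5.23e-07).

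Some of the higher genes with the largest fold changes had low counts. Ccdc57 had 2, 3 and 3 counts in Ctrl, 10, 12 and 17 in Model and 7, 13 and 7 in ChryM, a change of 2.11 ± 0.54 (SE, adjusted p = 0.000241). Tmem145, which overlaps LOC134482973 on the other strand, had 6, 6 and 8 counts in Ctrl, 19, 16 and 21 in Model and 12, 28 and 18 in ChryM, a change of 1.63 ± 0.35 (SE, adjusted p = 1.35e-05). Oplah, the oxoprolinase of glutathione turnover, had 5, 8 and 5 counts in Ctrl, 8, 11 and 21 in Model and 18, 20 and 14 in ChryM, a change of 1.46 ± 0.37 (SE, adjusted p = 0.000414). None of these 3 overlapped between the 6 libraries and Ctrl, which holds for every shared gene by definition and adds no support. Their ChryM to Model intervals were wide, such as -0.82 (95% interval -1.58 to -0.07, adjusted p = 0.201) for Ccdc57.

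LOC102546590, annotated as a class I histocompatibility antigen, differed widely between the 2 groups. It stood at 51.9, 46.7 and 68.4 CPM in Ctrl 1 to 3, 445, 486 and 407 in Model 1 to 3 and 97.7, 148 and 102 in ChryM 1 to 3. Model was far above the others, while ChryM still lay above every Ctrl library, a shared change of 2.05 ± 0.13 (SE, adjusted p = 2.86e-35) made of 3.01 in Model and 1.08 in ChryM. The ChryM to Model difference was -1.93 (95% interval -2.14 to -1.71, adjusted p = 1.2e-39). In a fit that treats the 6 libraries as 1 group the call was lost (adjusted p = 0.113). Class I genes are a large family of near-identical copies, so its counts are uncertain.

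Genes whose level in ChryM was further from Ctrl included signalling and RNA-processing genes. Ptpn11 (ENSRNOG00000030124), the phosphatase SHP2 that carries growth factor signals to the MAP kinases, had 69.6, 74.7 and 68.4 CPM in Ctrl 1 to 3, 106, 94.3 and 105 in Model 1 to 3 and 192, 208 and 185 in ChryM 1 to 3. Model lay above Ctrl in every library and ChryM far above both, a shared change of 0.99 ± 0.13 (SE, adjusted p = 2.15e-11) made of 0.52 in Model and 1.46 in ChryM. Snrnp70 (ENSRNOG00000020763), a protein of the U1 splicing particle, had 978, 993 and 984 CPM in Ctrl 1 to 3, 1204, 1206 and 1228 in Model 1 to 3 and 1673, 1644 and 1593 in ChryM 1 to 3, a change of 0.52 ± 0.06 (SE, adjusted p = 5.35e-12). Gpatch4 had 24.8, 36.2 and 32.9 CPM in Ctrl 1 to 3, 36.3, 36.4 and 44 in Model 1 to 3 and 101, 74.5 and 88.5 in ChryM 1 to 3, a change of 0.91 ± 0.19 (SE, adjusted p = 6.61e-05) in which the Model part was 0.33. As 1 group of 6, Gpatch4 and Ptpn11 lost their calls (adjusted p = 0.0719 for Ptpn11), and the Model group alone did not call Gpatch4. Potef, an actin-like gene that shares sequence with the actins, was a lower gene further from Ctrl in ChryM, with 1143, 1045 and 1135 CPM in Ctrl and 631 to 1026 CPM (median 828) in the 6 Model and ChryM libraries and a change of -0.46 ± 0.06 (SE, adjusted p = 6.19e-10). Its call too was lost as 1 group of 6 and in Model alone.

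Of 66 tested genes of cytosolic ribosomal proteins, 17 were shared higher and 0 lower, and 11 of the 17 were further from Ctrl in ChryM. Shared genes made 25.8% of those tested, beside 10.9% of all genes tested. The list's median was 0.26 in the pooled change, 0.12 in Model and 0.42 in ChryM, and its sum was 12645 to 13628 CPM in Ctrl, 13053 to 13463 in Model and 16285 to 17001 in ChryM. With library totals the pooled median was 0.17. Rpl37 (ENSRNOG00000064545), a protein of the large subunit, had 223, 242 and 253 CPM in Ctrl 1 to 3, 324, 303 and 292 in Model 1 to 3 and 399, 373 and 385 in ChryM 1 to 3. The change was 0.52 ± 0.08 (SE, adjusted p = 1.24e-07), with ChryM above Model in every library. Rps19 (ENSRNOG00000037897), of the small subunit, had 149.8, 173 and 177 CPM in Ctrl 1 to 3, 189, 194 and 197 in Model 1 to 3 and 282, 302 and 312 in ChryM 1 to 3, a change of 0.53 ± 0.09 (SE, adjusted p = 1.66e-06) that was 0.22 in Model and 0.85 in ChryM. The Model change alone was not called (adjusted p = 0.215). Rpl19, with 548, 579 and 519 CPM in Ctrl and 653 to 803 CPM (median 689) in the 6 Model and ChryM libraries, changed by 0.37 ± 0.07 (SE, adjusted p = 6.31e-06) and had no called ChryM to Model difference. Ribosomal genes have many processed copies, which may take part of their reads.

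Of 69 tested nuclear genes of oxidative phosphorylation, 7 were shared higher and 2 lower. These 9 are a share near the 10.9% of all genes tested. Cox6a1 (ENSRNOG00000001170), a subunit of cytochrome c oxidase, had 167, 159 and 188 CPM in Ctrl 1 to 3, 257, 239.9 and 247 in Model 1 to 3 and 252, 259 and 255 in ChryM 1 to 3. Model and ChryM overlapped and lay above Ctrl, a change of 0.56 ± 0.09 (SE, adjusted p = 2.95e-07) with a ChryM to Model difference of 0.04 (95% interval -0.16 to 0.24, adjusted p = 0.88). Ndufb7, a complex I subunit, changed by 0.53 ± 0.12 (SE, adjusted p = 0.000138), and Ndufs7, another, by -0.34 ± 0.07 (SE, adjusted p = 0.000118) in the opposite direction.

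Of 18 tested genes of antioxidant and glutathione enzymes, 3 were shared higher and 0 lower, or 16.7% beside 10.9% of all genes tested. Sod1 (ENSRNOG00000002115), the cytosolic superoxide dismutase, had 54.3, 75.9 and 60.2 CPM in Ctrl 1 to 3, 106, 86 and 86.7 in Model 1 to 3 and 84.2, 92.6 and 81.8 in ChryM 1 to 3. The change was 0.49 ± 0.14 (SE, adjusted p = 0.00597), and its call was lost without Ctrl 1 (largest adjusted p over its alternatives 0.151). The call of Sod1 was also lost with DESeq2 (adjusted p = 0.0529) and with limma on log2(FPKM + 1) (0.0508) and log2(FPKM + 0.1) (0.0536). Prdx5, a peroxiredoxin, had 679, 640.0 and 710.4 CPM in Ctrl and 819 to 949 CPM (median 864) in the 6 Model and ChryM libraries and a change of 0.37 ± 0.07 (SE, adjusted p = 4.47e-06); it overlaps Trmt112 on the other strand. Gpx4, which reduces lipid peroxides, changed by 0.26 ± 0.08 (SE, adjusted p = 0.0149), a call lost without Ctrl 2 and with library totals. It was also lost as 1 group of 6 and on log2(FPKM + 1) and log2(FPKM + 0.1).

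Of 14 tested neuropeptide and granin genes, 2 were shared higher and 0 lower. For 10 interneuron markers these numbers were 2 and 0, for 10 CA2 and CA3 markers 3 and 0, and for 8 CA1 markers 0 and 1. In the order of these lists, 14.3%, 20%, 30% and 12.5% were shared, beside 10.9% of all genes tested. With untested members included, 12 of 20 interneuron and 10 of 18 CA2 and CA3 markers had a lower mean in Model and ChryM. These means used library totals, under which the median of all genes tested was -0.10. The interneuron sum was 590 to 614 CPM in Ctrl, 704 to 751 in Model and 559 to 615 in ChryM. That of CA2 and CA3 was 1212 to 1298, 1313 to 1396 and 1282 to 1286. The medians of tested members were 0.22 and 0.04. Whether these lists rose as a whole is not read. Cck (ENSRNOG00000019321), the peptide cholecystokinin of interneurons, had 204, 189 and 201 CPM in Ctrl 1 to 3, 286, 291 and 309 in Model 1 to 3 and 206, 241 and 216 in ChryM 1 to 3. ChryM libraries lay just above Ctrl and below Model, a change of 0.37 ± 0.09 (SE, adjusted p = 0.000714) with a ChryM to Model difference of -0.42 (95% interval -0.61 to -0.22, adjusted p = 0.00144). ChryM alone did not call Cck or Pcp4 against Ctrl (adjusted p = 0.299 and 0.188). Pcp4, a calmodulin regulator of CA2 neurons, had 132, 145 and 148 CPM in Ctrl and 161 to 227 CPM (median 189) in the 6 Model and ChryM libraries and a change of 0.42 ± 0.10 (SE, adjusted p = 0.00059), also closer to Ctrl in ChryM. Dlx1, a transcription factor of interneurons that overlaps LOC108350393 on the other strand, had 41.3, 44.4 and 45.2 CPM in Ctrl and 54.2 to 84.4 CPM (median 71.8) in the 6 Model and ChryM libraries and a change of 0.66 ± 0.16 (SE, adjusted p = 0.00113). Pcsk1n, an inhibitor of a prohormone convertase, changed by 0.43 ± 0.07 (SE, adjusted p = 6.63e-07) with no called ChryM to Model difference.

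**Figure D3:**
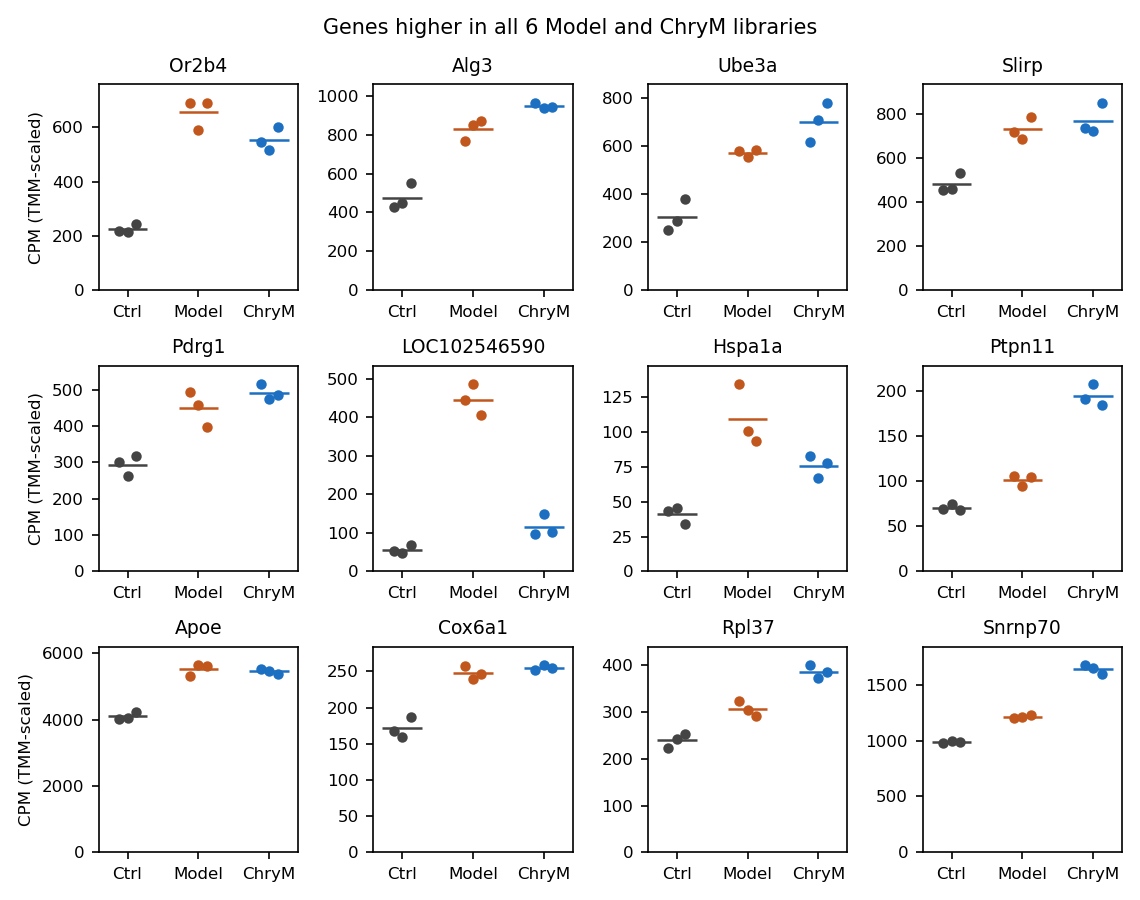
Scaled CPM (y axis, from 0) of 12 shared higher genes in each of the 9 libraries, grouped as Ctrl, Model and ChryM on the x axis; points are libraries and lines are group means of 3. All Model and ChryM points lie above all Ctrl points; Apoe and Cox6a1 are at like levels in Model and ChryM, Ptpn11, Rpl37 and Snrnp70 are higher in ChryM, and LOC102546590 and Hspa1a are higher in Model.

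Of 4 tested genes of antigen presentation and interferon response, 2 were shared lower, or 50% beside 10.9% of all genes tested. Cd74, the invariant chain of class II molecules, had 19, 16 and 16 counts in Ctrl, 5, 6 and 6 in Model and 7, 2 and 3 in ChryM, a change of -1.67 ± 0.34 (SE, adjusted p = 6.41e-05). Psmb9, a subunit of the immunoproteasome, had 12, 13 and 13 counts in Ctrl, 3, 4 and 2 in Model and 4, 3 and 5 in ChryM, a change of -1.69 ± 0.42 (SE, adjusted p = 0.00106). The summed level of the whole list was 226 to 263 CPM in Ctrl, 136 to 177 in Model and 109.7 to 126 in ChryM. Of 5 tested genes of NF-kB and inflammatory signalling, 1 was shared higher and 1 lower, or 40% beside 10.9% of all genes tested. Nfkbie, an inhibitor of NF-kB, rose by 0.28 ± 0.06 (SE, adjusted p = 0.000123). It was closer to Ctrl in ChryM, which alone did not call it (adjusted p = 0.0662). Vcam1, an adhesion molecule of activated endothelium, had 18, 12 and 10 counts in Ctrl, 5, 7 and 10 in Model and 2, 6 and 7 in ChryM, a change of -0.98 ± 0.35 (SE, adjusted p = 0.0366), a call lost without any of Ctrl 1, Ctrl 2, Model 1 or ChryM 1. Of 8 tested complement genes, 1 was shared lower (Clu) and 0 higher, a share (12.5%) near the 10.9% of all genes tested. The summed level of the whole complement list was 614 to 648 CPM in Ctrl, 504 to 537 in Model and 429 to 493 in ChryM. The summed level of the microglia markers was 279.9 to 306 CPM in Ctrl, 274 to 345 in Model and 223 to 264 in ChryM.

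Several lists held no shared gene, beside a share of 10.9% over all genes tested. These were markers of ependyma, endothelium, microglia, blood leukocytes, dentate granule neurons and thalamus, and lists of immediate early genes, monoamine and acetylcholine systems, neurotrophins, mitochondrially encoded mRNAs, the unfolded protein response and the proteasome. Thalamus and leukocytes had 1 tested member each, ependyma 2, neurotrophins 6, microglia 8 and endothelium 9, too few to read an absence. Some members were called but overlapped. They were 2 lower in endothelium, 1 higher in thalamus, 1 higher and 1 lower in neurotrophins, 1 lower in monoamine and acetylcholine systems and 1 higher in mitochondrially encoded mRNAs. For the proteasome, edgeR called 0 of 33 members, DESeq2 and limma-voom also 0, and 4 had an unadjusted p under 0.05. The median of the proteasome list was -0.07. For immediate early genes, which report recent neuronal activity, the 3 tools called 0 of 12, and 6 had an unadjusted p under 0.05. Of 8 microglia markers edgeR, DESeq2 and limma-voom called 0, with 1 under an unadjusted p of 0.05. In the ependymal, leukocyte and unfolded protein lists, with 2, 1 and 6 members tested, the 3 tools called 0 and 0 had an unadjusted p under 0.05. Markers of dentate granule neurons had 3 called lower members of 8 tested, with overlap, and a sum of 348 to 409 CPM in Ctrl, 209.6 to 230.2 in Model and 320.4 to 338 in ChryM.

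**Figure D4:**
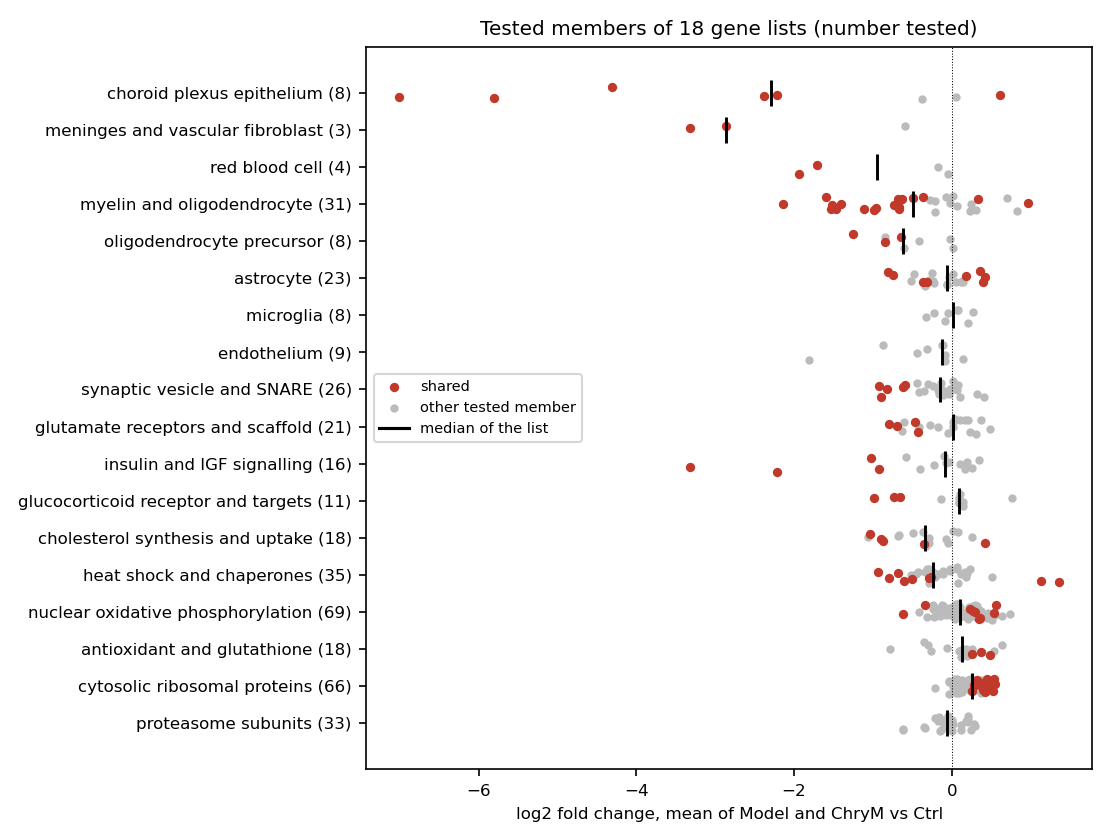
Log2 fold change of Model and ChryM together against Ctrl (x axis) for each tested member of 18 lists (rows, number tested in brackets); red points are shared genes, grey points other tested members and black bars list medians. Members of the choroid plexus and meningeal lists, and Igf2 and Igfbp2 again on the insulin list, reach furthest to the left, and the 17 red points of the ribosomal proteins lie to the right of 0.

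Nr1d1, a repressor of the circadian clock that overlaps Thra on the other strand, had 3103, 3018 and 3295 CPM in Ctrl and 3414 to 3889 CPM (median 3802) in the 6 Model and ChryM libraries and a change of 0.25 ± 0.06 (SE, adjusted p = 0.000667). Of 11 tested clock genes it and Dbp were shared higher, and Dbp (0.42) lost its call without any of 5 libraries, Ctrl 1 to 3, Model 1 or ChryM 2. Shared genes made 18.2% of the tested clock genes, beside 10.9% of all genes tested. Tmem125, a membrane protein gene next to no opposite-strand gene, had 810.3, 757 and 847 CPM in Ctrl and 387 to 521 CPM (median 431) in the 6 Model and ChryM libraries and a change of -0.87 ± 0.07 (SE, adjusted p = 3.04e-25), closer to Ctrl in ChryM.

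Shared genes were found in every class of genomic neighbourhood. Of 2094 tested genes with no opposite-strand RefSeq gene within 5 kb, 64 (3.06%) were shared higher and 116 (5.54%) shared lower. Of 1688 that overlap an opposite-strand gene, 110 (6.52%) were higher and 89 (5.27%) lower. Of 1630 with such a gene within 5 kb but no overlap, 88 (5.40%) were higher and 68 (4.17%) lower. For 1245 named genes no strand was found, and 73 (5.86%) of them were higher and 75 (6.02%) lower. Of 416 tested IDs without a gene name, 63 (15.1%) were higher and 23 (5.53%) lower. The share of higher genes thus differed between these classes more than that of lower genes, and the part of opposite-strand reads in it was not tested. Among the unnamed IDs, chosen after its value was seen, ENSRNOG00000067256 was higher by 4.37 on the log2 scale. Ttr, Igf2, Igfbp2, Cldn11, Ugt8, Rpl37 and Apoe are among the genes with no such neighbour within 5 kb.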

How the data were processed

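Poly(A) RNA of rat hippocampus was sequenced in 9 libraries, 3 each of Ctrl, Model and ChryM, grouped by the labels. The authors deposited a table of raw counts per gene and a table of FPKM. Per the submitters' processing notes HISAT2 and DESeq2 were used, while no version, counting strand, genome build or annotation is given in the sources used here. Each deposited FPKM value equalled count divided by length and library total in 100% of values (relative tolerance 1e-09).

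Counts were fitted with edgeR 4.0.16 in R 4.3.3 (quasi-likelihood, robust, one coefficient per group, TMM factors, its default filter on low counts), over 7073 of 30562 genes with 6 residual degrees of freedom. The tested contrast was the mean of the Model and ChryM coefficients minus Ctrl, two-sided, with Benjamini-Hochberg adjustment over all genes tested. The orthogonal contrast ChryM minus Model sorted the shared genes. Printed SEs are the larger of the test's SE and the counting error computed from group sums of counts, and the latter was larger in 97 shared genes, while p-values are the test's own. Counting intervals of ratios are 95% and, like the floor of 3 counts, cover counting error only. Library totals were 631119 to 866048.

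Of 4367 IDs the table gives no gene name. Of 26195 gene names, 23678 matched RefSeq (GRCr8), and 16064 had a strand, from which opposite-strand neighbours were found. Genes were named by a rule: among shared genes with a name and a mean of at least 10 CPM, the 8 smallest p and the 6 largest folds in each direction, up to 4 members of each of 48 lists by p at any level, the 6 closer and the 4 further with the smallest p of ChryM against Model, and the 6 narrowest differences, or 116 genes in all. The members and the gene lists were chosen with earlier results of these data known. Alternatives covered normalization, count filter, tool (DESeq2 1.42.0, limma 3.58.1), pseudocount of log2(FPKM + 1) or log2(FPKM + 0.1), design, a surrogate variable (sva 3.50.0), a fold minimum of 1.2 and each library left out. The fit was tested on simulated counts. A few genes are not reported here.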

Additional observations from a re-analysis of the deposited data

How the results depend on the processing

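No direction of the 116 named genes was reversed under any alternative. These genes were named for lying on one side of Ctrl in every Model and ChryM library. With a library left out or 1 group alone, a reversal was therefore all but excluded beforehand, and its absence is no support. All 116 kept their call with DESeq2 size factors, limma-voom, a fit that was not robust, the newer quasi-likelihood method and the counting floor, and 110 kept it with library totals, 106 without a count filter, 103 with 1 surrogate variable, 101 and 99 on log2(FPKM + 1) and log2(FPKM + 0.1), 99 with the 2-level design, 104 with ChryM alone, 91 with Model alone and 72 with the fold minimum of 1.2. With DESeq2 84 of 98 with an adjusted p kept it, with a mean count of at least 30 it was 90 of 91, and among genes with no opposite-strand neighbour 36 of 36. Leaving out 1 library kept 101 (without Ctrl 2) to 113. The newer quasi-likelihood method, the counting floor (p-values from the larger SE) and the restriction to genes with no opposite-strand gene within 5 kb, were chosen after seeing the data. The planned fit with legacy = TRUE is the default of this version of edgeR and gave no separate value. Counts below follow the order called higher, called lower, shared higher, shared lower, closer, further, no called difference, Model against Ctrl, ChryM against Ctrl and ChryM against Model, leaving out those that stayed within 1.5 times.

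Leaving out 1 library gave 440 to 642, 405 to 644, 357 to 532, 342 to 444, 21 to 59, 29 to 79, 598 to 827, 614 to 887, 971 to 1349 and 390 to 621. Of the 769 shared genes 591 to 716 were still shared, the fewest without Ctrl 2 (591) and Ctrl 1 (592). A fold minimum of 1.2 gave 163, 212, 143, 183, 10, 8, 308, 285, 539 and 133, as a stricter criterion. DESeq2 gave 399 called higher, 176 called lower, 144 shared lower, 18 closer, 25 further, 407 with no called difference, and 413, 598 and 252 for the 3 single comparisons. Of the 769 shared genes 437 were still shared with it. Library totals gave 422 called higher and 243 shared higher, and moved the median of all genes from -0.02 to -0.10. The 2-level design gave 397 called higher and 384 lower. On log2(FPKM + 1) there were 315 called higher, 225 shared higher, 33 further, and 553, 793 and 352 in the single comparisons. On log2(FPKM + 0.1) these were 305, 223, 32, 521, 772 and 351. With 1 surrogate variable 15 were closer, 23 further, 408 called in Model and 228 between ChryM and Model. Without a count filter 35 were further. Model alone gave 381 called lower, and ChryM alone gave 646 shared higher and 585 shared lower, with fewer libraries to overlap. Genes with no opposite-strand gene within 5 kb, of which fewer were tested, gave 112, 209, 64, 116, 7, 15, 158, 172, 320 and 132. The cause of the changes under the other alternatives was not tested.

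The replicate block left 766 of the 769 genes shared and kept all 116 named calls. Libraries with the same number had correlated deviations of only -0.04 to 0.11, so the numbers were not used as a pairing. At a median of 19 to 27 counts per tested gene, intervals between ChryM and Model were wide for many lower genes.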
